A study of Rattus norvegicus with 6 samples.

Results

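Prohormone processing in the beta cell was followed through 8 genes, Pcsk1, Pcsk2, Cpe, Cpd, Pam, Scg5, Pcsk1n and Furin, in beta cells of fasted rats and of rats with free access to food. A probe set (a group of short probes against 1 transcript) was taken where the platform annotation gave it a single symbol equal to 1 of the 8. This found 10 probe sets of 7 genes, out of 14217 genes with 1 symbol. Pcsk1 was unnamed in the annotation used here, and its 2 probe sets were taken from the gene lists that came with the study. The 7 probe sets of the other genes in those lists, of beta cell markers and of transcripts enriched in non-beta islet cells, all matched the annotation. Pcsk1n and Cpd stand in the list of transcripts enriched in non-beta islet cells. In all, 12 probe sets of 8 genes were measured.

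The cells came from male Wistar rats, 10 weeks old, which had either been fasted for 24 h or fed ad libitum. There were 3 isolates of fasted and 3 of fed rats, each an independent isolation from a pool of 5 animals, sorted by fluorescence (FACS), frozen directly and hybridized on 1 Affymetrix array. An isolate is therefore a mean over 5 animals, and differences among single animals are not seen. Values are the linear intensities that the authors deposited, and a change is the log2 ratio of fasted over fed from limma, fitted over 31042 probe sets. Past the thresholds means a fold of at least 1.5 together with an unadjusted p under 0.05.

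Beta cells make their hormones as larger precursors that are cut while the secretory granule matures. The subtilisin-like convertases PCSK1 and PCSK2 cut proinsulin and other prohormones after pairs of basic residues, and carboxypeptidase E (CPE) then trims the basic residues left at the new ends. PAM turns a terminal glycine into an amide, as on islet amyloid polypeptide. SCG5 is the partner protein that PCSK2 needs to become active, PCSK1N (proSAAS) is an inhibitor of PCSK1, and FURIN and carboxypeptidase D (CPD) do related work in the trans-Golgi network of most cells.

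The upstream sequences of the PCSK2 and SCG5 genes, an enzyme and its partner protein, are shown. The pair was chosen after its values were seen. Pcsk2 had a log2 change of -0.29 (adjusted p = 0.294 in limma) and Scg5 of 0.01 (adjusted p = 0.957 in limma). A difference between them is not established, and no link between sequence and values was tested. Of the 8 genes, 5 had an entry in RefSeq's table for the build GRCr8, from which the 250 bases before the annotated start were read. The capitals mark TGACG or its reverse complement CGTCA, the core of the sequence that CREB and related factors bind. The first window is chr3:151333688-151333937 on the plus strand and the second is chr3:121042796-121043045 on the minus strand, both upstream of the gene and printed 5′ to 3′.
Pcsk2: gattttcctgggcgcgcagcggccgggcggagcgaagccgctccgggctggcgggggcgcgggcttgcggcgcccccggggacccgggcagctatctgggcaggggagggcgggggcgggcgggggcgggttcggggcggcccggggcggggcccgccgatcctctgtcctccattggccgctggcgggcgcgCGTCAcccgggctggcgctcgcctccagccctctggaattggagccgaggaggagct
Scg5: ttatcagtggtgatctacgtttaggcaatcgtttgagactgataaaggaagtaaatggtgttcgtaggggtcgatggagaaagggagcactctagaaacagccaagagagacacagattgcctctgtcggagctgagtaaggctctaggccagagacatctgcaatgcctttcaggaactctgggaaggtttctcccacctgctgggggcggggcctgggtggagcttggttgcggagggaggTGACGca
The capitals began 57 bases before the start in Pcsk2 and 7 bases before it in Scg5. TGACG, searched on both strands, was in 4 of the 5 windows (Scg5, Pcsk2, Pam and Cpe, but not Pcsk1n) and in 18.2% of 33469 rat windows of the same length. GGGGCG or CGCCCC, the core of a GC box, was in 3 of the 5 (Scg5, Pcsk2 and Cpe) and in 26.1% of all windows. It was found 6 times in Pcsk2, matches that share bases included, and once in Scg5. The Pcsk2 window was 79.6% G and C, against 53.2% in Scg5. A match is a stretch of letters and not a measured site.

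No processing gene passed the thresholds between beta cells of fasted and fed rats. Of the 12 probe sets, 0 were lower and 0 higher past the thresholds, where 8.43% of all probe sets were lower and 2.37% higher. At an unadjusted p under 0.05 alone, 1 of the 12 was lower (Pcsk2), where 11.6% of all probe sets were lower. After Benjamini-Hochberg adjustment over all probe sets 0 of the 12 passed at 0.05 in limma, where 0% of all probe sets did, and the adjusted p of the 8 genes, each on its brightest probe set, lay between 0.294 and 0.957. Other limma fits passed some of all probe sets after adjustment (113 lower and 11 higher with dim probe sets left out, 75 and 8 with a pseudocount, 80 and 8 with robust variance), but again 0 of the 12. The comparison of linear means with unequal variances also passed 0 after adjustment and 1 (Pam) without it. Over the 8 genes the median log2 change was -0.09, ranging between -0.31 and 0.01, beside a median of -0.20 over all probe sets. Among the 403 probe sets with a mean intensity over 1000, which hold 7 of the 12, the median was -0.07, close to that of the 8 genes. Of these bright probe sets 24.1% were lower at an unadjusted p under 0.05 in limma.

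The scale of the arrays bears on these values. The median probe set read 17.1, 17.8 and 21 in fasted rats, against 21.1, 21.8 and 20.2 in fed rats. When each array was scaled to its 75th percentile, the median over all probe sets was 0.01 and that over the 8 genes 0.15, and after quantile normalization they were -0.02 and 0.01. Over all probe sets, 2616 were lower and 737 higher past the thresholds, against 1329 lower and 1430 higher after scaling and 1501 lower and 1275 higher after quantile normalization. None of the 12 probe sets of the processing genes was past the thresholds under either. Scaling to the 75th percentile moves the log2 changes of all probe sets well above the floor by the same amount.

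The sorted cells carried the transcripts of beta cells at high intensity. The beta cell list (7 of 9 genes measured) summed to 22725 to 24166 in fasted and 23603 to 24768 in fed rats, with 0 of 7 past the thresholds. Acinar genes (12 of 13 measured, all far above 0) were bright as well, summing to 58481 to 66289 in fasted and 62589 to 67599 in fed rats, with 0 past the thresholds. The sums of separate lists cannot be set against each other as amounts of RNA, since the brightness of separate probe sets is not comparable. By qPCR the paper found the acinar gene CTRB1 far less abundant in rat beta cells than in whole pancreas. In the beta cells CTRB1 was still more abundant than CPE, PCSK1 and SCG5. For human arrays the paper proposes that very abundant acinar mRNAs saturate their probes. The alpha cell list (3 of 5 measured) summed to 5051 to 5834 in fasted and 3561 to 7770 in fed rats, and fed replicate 2 stood apart with the highest value of Gcg, Ppy and Pyy on any array. Of 4 duct genes measured, 1 was higher past the thresholds (2.37% over all probe sets). This was Krt19, an epithelial keratin, at 88.9, 80.3 and 88 in fasted rats, against 56.8, 46.4 and 55.6 in fed rats (log2 change 0.70, adjusted p = 0.192 in limma). Of 3 neuronal and Schwann cell genes measured, 1 was higher past the thresholds (2.37% over all probe sets). This was the myelin gene Mbp, at 288, 247 and 244 in fasted rats, against 157, 188 and 151 in fed rats (log2 change 0.65, adjusted p = 0.176 in limma). The duct list summed to 430 to 536 in fasted and 353 to 403 in fed rats, the neuronal and Schwann list to 273 to 341 in fasted and 174 to 218 in fed rats, and 0 genes of the other cell type lists were past the thresholds. In such mixed material fewer cells of a type and less RNA per cell cannot be told apart. By proteomics the paper found PCSK2, SCG5 and CPE protein more abundant in rat alpha cells than in beta cells. By its qPCR CPE mRNA was more abundant in beta cells, and SCG5 mRNA differed little between them. The part of other cell types in the values below was not tested, and the number of arrays limits the precision throughout.

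**Figure D1:**
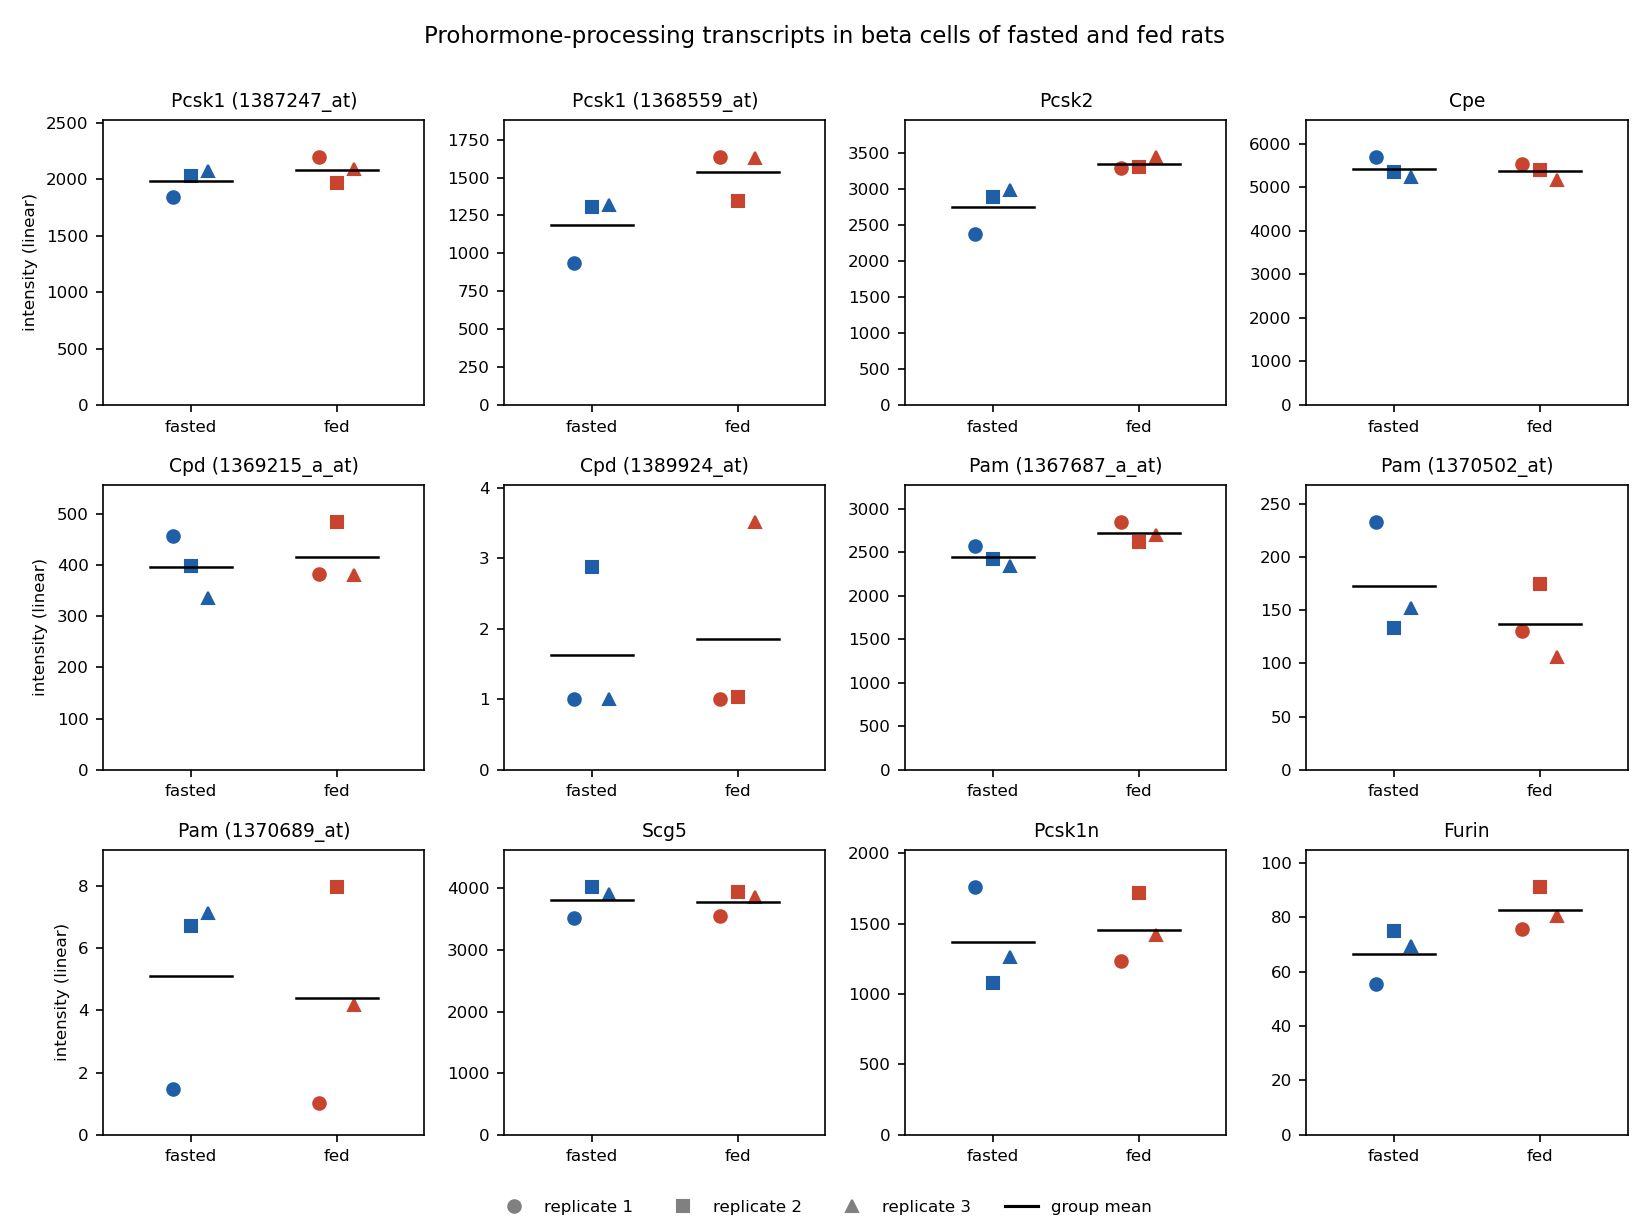
Linear intensity (vertical axes, each starting at 0) of the 12 probe sets of the 8 processing genes in beta cells of 3 fasted and 3 fed isolates, with the replicate number as marker and the group mean as line. Fasted lies wholly below fed in Pcsk2, in 1 probe set each of Pcsk1 and Pam, and in Furin, and the groups overlap in the other 8.

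Pcsk1, which cuts proinsulin mainly where the B chain ends, was measured by 2 probe sets that gave unlike values. The brighter, 1387247_at, read 1845, 2028 and 2070 in fasted rats, against 2198, 1963 and 2089 in fed rats. The means were 1981 ± 120 in fasted and 2083 ± 118 in fed rats (SD, n = 3 each), and the groups overlapped. The log2 change of -0.07 (SE 0.08, 95% interval -0.27 to 0.12, adjusted p = 0.646 in limma) was smaller than the spread among isolates.

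The other probe set of Pcsk1, 1368559_at, read 939, 1305 and 1321 in fasted rats, against 1637, 1344 and 1631 in fed rats. Here every fasted isolate lay below every fed one, fasted replicate 1 being the lowest. Its log2 change was -0.38 (SE 0.16, 95% interval -0.77 to 0.01), with an unadjusted p of 0.0529 and an adjusted p of 0.340 in limma. With fasted replicate 1 left out it was -0.22, so that the size of the log2 change rested in part on this isolate. Without fed replicate 2 it was -0.48 (unadjusted p = 0.0422 in limma). Scaled to the 75th percentile it was -0.14 (unadjusted p = 0.327 in limma), and after quantile normalization -0.23 (0.146). The unadjusted p in limma was 0.0182 with robust variance, 0.0200 with a pseudocount, 0.0244 without dim probe sets and 0.0392 with array weights. It was 0.0775 with the higher floor and 0.112 without the trend. The mean of both probe sets gave -0.23 for Pcsk1 (adjusted p = 0.389 in limma).

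Pcsk2, which cuts proinsulin mainly where the A chain begins and makes glucagon in alpha cells, had a single probe set. It read 2374, 2889 and 2990 in fasted rats, against 3282, 3308 and 3444 in fed rats, and the groups did not overlap. The means were 2751 ± 330 in fasted and 3345 ± 86.8 in fed rats (SD, n = 3 each). The log2 change was -0.29 (SE 0.10, 95% interval -0.54 to -0.04), with an unadjusted p of 0.0293 and an adjusted p of 0.294 in limma, and the fold stayed under 1.5.

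The Pcsk2 difference depended on the scaling, and its size on the lowest fasted isolate. Scaled to the 75th percentile it was -0.04 (unadjusted p = 0.696 in limma), and after quantile normalization it was -0.25 (unadjusted p = 0.0187 in limma). Without fasted replicate 1, the lowest isolate, it was -0.19 (unadjusted p = 0.0365 in limma), a smaller log2 change. With fed replicate 1 left out it was -0.30 (unadjusted p = 0.0647 in limma), with fed replicate 2 left out -0.30 (0.0621) and with fed replicate 3 left out -0.27 (0.0906), much the same size with fewer arrays.

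Scg5, the partner protein of PCSK2, read 3509, 4023 and 3902 in fasted rats, against 3550, 3930 and 3850 in fed rats. The means of 3811 ± 269 in fasted and 3777 ± 201 in fed rats (SD, n = 3 each) differed by less than the spread among isolates. Scg5 had a log2 change of 0.01 (SE 0.08, 95% interval -0.19 to 0.21, adjusted p = 0.957 in limma). This interval lies within 1.5-fold in both directions. Scaled to the 75th percentile the change of Scg5 was 0.26 (unadjusted p = 0.0962 in limma), so the value near 0 holds on the deposited scale.

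Pcsk1n, the inhibitor of PCSK1, varied more among isolates than the other 7 genes on their brightest probe sets, with a coefficient of variation of 25.9% in fasted and 16.6% in fed rats. It read 1763, 1077 and 1266 in fasted rats, against 1238, 1718 and 1420 in fed rats. The means of 1369 ± 354 in fasted and 1459 ± 242 in fed rats (SD, n = 3 each) overlapped widely. The log2 change of -0.11 (SE 0.21) had a 95% interval of -0.62 to 0.40, which reaches past 1.5-fold lower, and an adjusted p of 0.802 in limma.

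Within the fed group Pcsk1n was highest in replicate 2, the isolate with the high Gcg, and the brighter Pcsk1 probe set was lowest there. Within the fasted group Pcsk1n was highest in replicate 1, where Gcg was the lowest of that group. Gcg read 4958, 5769 and 5261 in fasted rats, against 4426, 7629 and 3532 in fed rats. The study lists Pcsk1n among transcripts enriched in non-beta islet cells, and the part of such cells in the Pcsk1n values was not tested. Without fed replicate 2 the log2 change was 0.01 for Pcsk1n and -0.12 for Pcsk1, and without fasted replicate 1 it was -0.31 for Pcsk1n. Over the 6 arrays the log2 intensities of Pcsk1 and Pcsk1n had a Pearson r of -0.69, given as a description over arrays that share 1 normalization.

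Cpe, the carboxypeptidase of the granule, was among the brightest probe sets of the arrays, ranking 20 by mean intensity. It read 5703, 5347 and 5228 in fasted rats, against 5542, 5394 and 5174 in fed rats. The means of 5426 ± 247 in fasted and 5370 ± 185 in fed rats (SD, n = 3 each) overlapped, and the log2 change was 0.01 (SE 0.07, 95% interval -0.15 to 0.18, adjusted p = 0.931 in limma). Scaled to the 75th percentile the change of Cpe was 0.26 (95% interval -0.14 to 0.66). The highest intensity on any array was 7629, and how far so bright a probe set still follows the amount of RNA was not tested.

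Cpd, the carboxypeptidase of the trans-Golgi network, read 456, 398 and 335 on its brighter probe set (1369215_a_at) in fasted rats, against 383, 485 and 381 in fed rats. The groups overlapped, at 396 ± 60.8 in fasted and 416 ± 59.4 in fed rats (SD, n = 3 each). For Cpd the log2 change was -0.07 (SE 0.15, 95% interval -0.44 to 0.30, adjusted p = 0.828 in limma). Its other probe set, 1389924_at, lay between 1 and 3.52 on the 6 arrays, at or near the floor of 3.27, and gives no change.

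Pam, the amidating enzyme, had 3 probe sets whose values differed in sign. The brightest, 1367687_a_at, read 2571, 2419 and 2344 in fasted rats, against 2848, 2615 and 2693 in fed rats. The groups, at 2445 ± 116 in fasted and 2718 ± 119 in fed rats (SD, n = 3 each), did not overlap, though fasted replicate 1 and fed replicate 2 lay close together. The log2 change was -0.15 (SE 0.07, 95% interval -0.33 to 0.02), with an unadjusted p of 0.0745 and an adjusted p of 0.366 in limma. Scaled to the 75th percentile it was 0.09. Its unadjusted p in limma was 0.0417 without fasted replicate 1.

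The middle probe set of Pam, 1370502_at, read 233, 133 and 152 in fasted rats, against 131, 175 and 106 in fed rats. These values overlapped and gave a log2 change of 0.32 (SE 0.27, 95% interval -0.34 to 0.97, adjusted p = 0.564 in limma), and without fasted replicate 1 the change was 0.08. The third, 1370689_at, lay between 1.03 and 7.98 and was too dim to give a change. With all 3 probe sets averaged, Pam had a log2 change of 0.11 (adjusted p = 0.742 in limma), of the opposite sign to its brightest.

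Furin, the convertase of the constitutive pathway, read 55.5, 75 and 69.5 in fasted rats, against 75.8, 91.2 and 80.5 in fed rats. The groups, at 66.7 ± 10 in fasted and 82.5 ± 7.93 in fed rats (SD, n = 3 each), were kept apart by a narrow margin between fasted replicate 2 and fed replicate 1. The log2 change was -0.31 (SE 0.17, 95% interval -0.72 to 0.09), with an unadjusted p of 0.107 and an adjusted p of 0.402 in limma. Without fasted replicate 1 it was -0.19, and scaled to the 75th percentile it was -0.07.

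**Figure D2:**
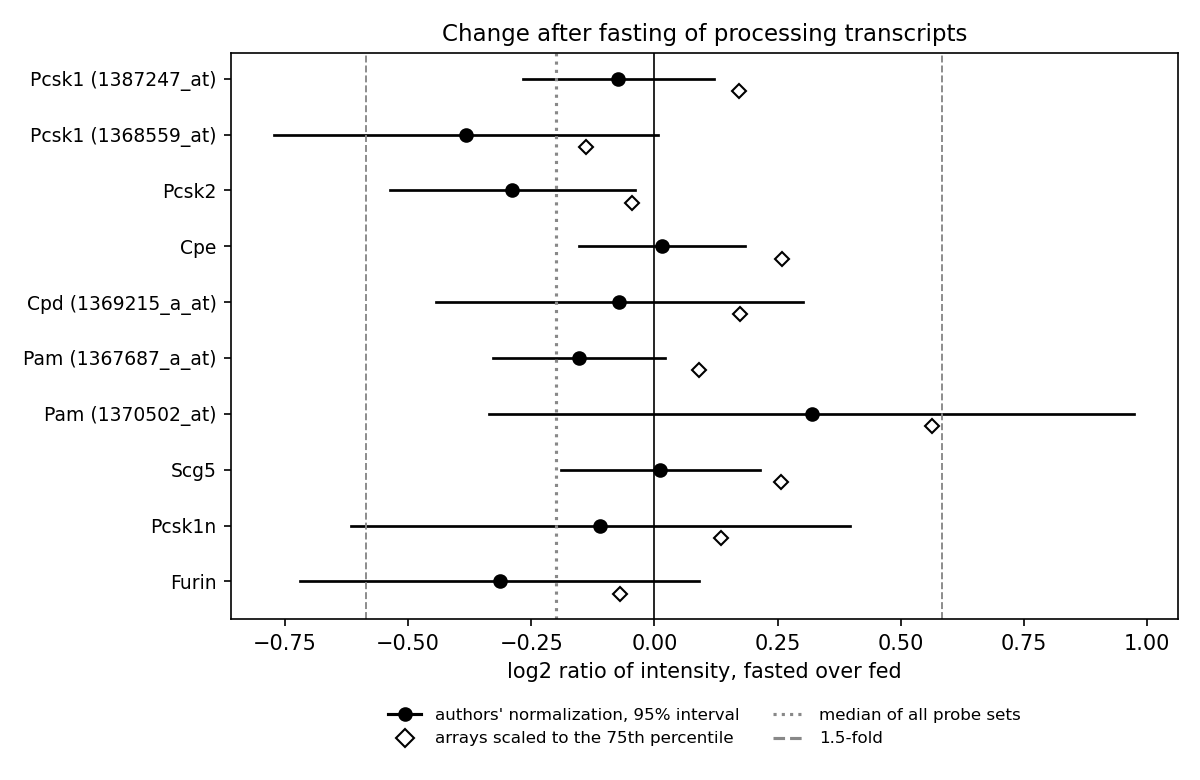
Log2 ratio of intensity, fasted over fed, for the 10 probe sets bright enough to give one, with the 95% interval of limma on the deposited scale (circles and bars) and the value with all arrays scaled to 1 common 75th percentile (diamonds). The dotted line marks the median of all probe sets at -0.20 and the dashed lines a 1.5-fold difference, and the diamonds all lie to the right of the circles.

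Fasted values lay wholly below fed values in 4 of the 12 probe sets (Pcsk2, Furin and 1 each of Pcsk1 and Pam), or 33.3%, where 17.6% of all probe sets did so. Fasted values lay wholly above fed values in 0 of 12, where 5.24% of all probe sets did. Among the 403 probe sets with a mean intensity over 1000, which hold 7 of the 12, 31.5% had fasted wholly below fed. For the 8 genes, 6 intervals lay within 1.5-fold in both directions, the exceptions being Pcsk1n and Furin. After scaling to the 75th percentile 5 of 8 did, the exceptions being Cpe, Cpd and Pcsk1n.

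The ratio of a pair of genes on the same array does not depend on the scaling of that array. Only its difference between the groups can be read, since the brightness of separate probe sets is not comparable. The log2 ratio of Pcsk2 to Scg5 was -0.56, -0.48 and -0.38 in fasted rats, against -0.11, -0.25 and -0.16 in fed rats. The groups did not overlap, and the difference was -0.30.

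The log2 ratio of Pcsk2 to Cpe was -1.26, -0.89 and -0.81 in fasted rats, against -0.76, -0.71 and -0.59 in fed rats, also a difference of -0.30 without overlap. The log2 ratio of Pcsk1 (brighter probe set) to Pcsk2 was -0.36, -0.51 and -0.53 in fasted rats, against -0.58, -0.75 and -0.72 in fed rats. Here fasted was the higher group, by 0.22, again without overlap. The other probe set of Pcsk1 had a log2 change of -0.38, lower than the -0.29 of Pcsk2. The direction of this ratio therefore holds for the brighter Pcsk1 probe set only. These 3 pairs all contain Pcsk2 and are not separate observations.

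A two-sided exact permutation test gave p = 0.1 for each of these 3 ratios, which is the smallest p that 3 against 3 isolates allow, and 0.167 after Benjamini-Hochberg adjustment over 5 ratios. The ratio of Pcsk1 to its inhibitor Pcsk1n was 0.07, 0.91 and 0.71 in fasted rats, against 0.83, 0.19 and 0.56 in fed rats (log2, exact p = 0.9). That of Cpe to Cpd was 3.64, 3.75 and 3.96 in fasted rats, against 3.86, 3.48 and 3.76 in fed rats (log2, exact p = 0.7, adjusted 0.875). In both of these ratios the groups overlapped.

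**Figure D3:**
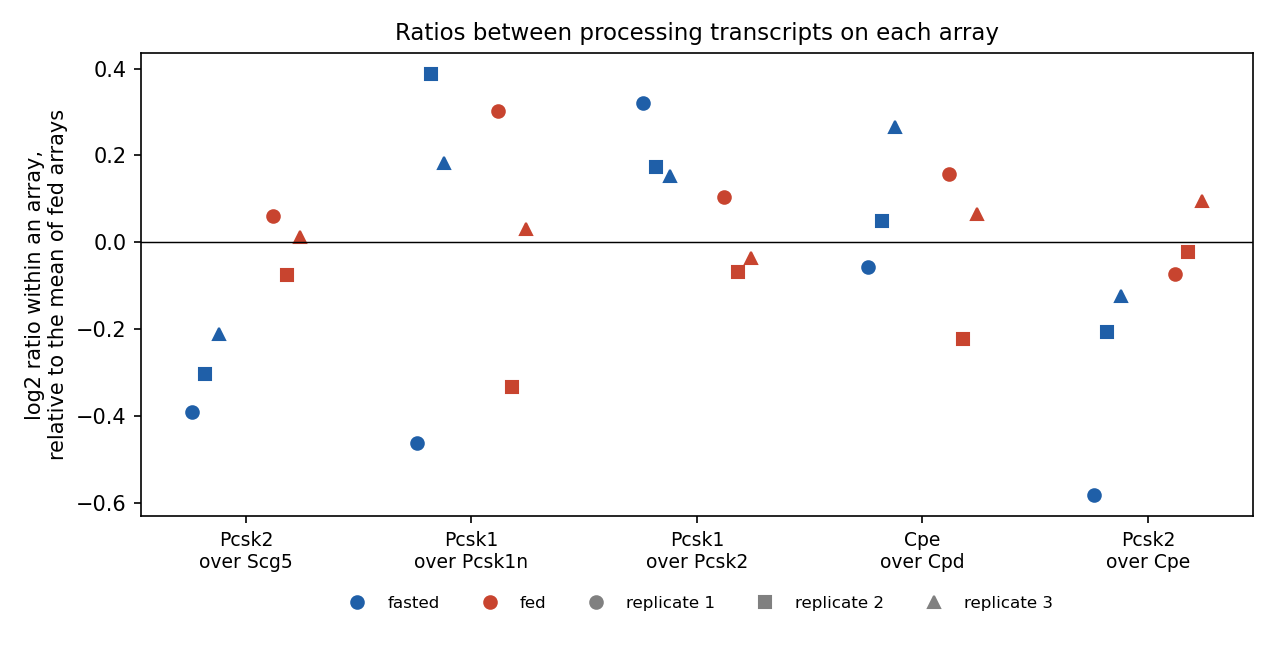
Log2 ratio of 2 processing genes on the same array (vertical axis, set relative to the mean of the fed arrays), for 5 pairs in 3 fasted and 3 fed isolates. Each gene is given by its brightest probe set. The fasted points lie below the fed points for Pcsk2 over Scg5 and Pcsk2 over Cpe, above them for Pcsk1 over Pcsk2, and among them for Pcsk1 over Pcsk1n and Cpe over Cpd.

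Over the 6 arrays the highest correlation among the 8 genes was that of Pcsk2 with Furin (Pearson r = 0.90 of log2 intensity), and the lowest was that of Cpe with Scg5 (r = -0.79). Pcsk1 and Pcsk2 had r = 0.74. These values describe 6 arrays in 2 groups with a shared normalization, and carry no test. Among 12180 named probe sets brighter than the median, the pattern of Pcsk1 (brighter probe set) was most like that of Zfyve27 and Cacna1b (r = 0.99 each) and Ajm1 (r = 0.98), and 322 had r over 0.9. For Pcsk2 the most alike were Os9, Mdm2 and Lancl1 (r = 1.00 each when rounded), and 2349 of 12179 had r over 0.9.

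The prohormones that these enzymes cut gave changes of both signs. Of 21 precursors and granins, all measured, 2 were lower and 1 higher past the thresholds (8.43% and 2.37% over all probe sets) and 18 were not past them, with a median log2 change of -0.04. The main substrates had log2 changes of 0.02 for Ins1, 0.03 for Ins2 and -0.08 for Iapp, and none had an unadjusted p under 0.05 in limma. Scaled to the 75th percentile the changes were 0.26 for Ins1, 0.27 for Ins2 and 0.16 for Iapp. The probe sets of these substrates were brighter still than that of Cpe, near the top of the range. How far they still follow the amount of RNA was not tested, so small changes here do not show unchanged hormone transcripts. The probe set that the annotation names Ins1 read 5783, 6012 and 6299 in fasted rats, against 5719, 5958 and 6200 in fed rats. The gene lists that came with the study give this probe set as INS1 and INS2 together. Values given for Ins1 here and elsewhere may therefore not be specific to it or separate from those of Ins2.

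Nucb2, the precursor of nesfatin, was lower, at 910, 1282 and 1161 in fasted rats, against 2245, 1906 and 2245 in fed rats (log2 change -0.94, adjusted p = 0.164 in limma). Cartpt, the precursor of the CART peptides, was lower too, at 63.8, 115 and 131 in fasted rats, against 239, 240 and 184 in fed rats (log2 change -1.15, adjusted p = 0.224 in limma). Both stayed past the thresholds under every alternative run. Npy, a neuropeptide precursor, was higher, at 473, 273 and 317 in fasted rats, against 280, 140 and 142 in fed rats (log2 change 0.96, adjusted p = 0.290 in limma). The Npy groups overlapped, and its call was lost without fasted replicate 1 (0.73), fasted replicate 3 (1.02), fed replicate 2 (0.79) or fed replicate 3 (0.80), with array weights (0.68) and in the comparison of linear means (unequal variances, 0.92).

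Chga, outside the rule for named genes and chosen after its values were seen, encodes chromogranin A, a granule protein that is itself cleaved. It read 1894, 1891 and 1893 in fasted rats, against 2833, 2393 and 2899 in fed rats. The groups did not overlap, and the log2 change of -0.51 (adjusted p = 0.176 in limma) was under 1.5-fold. Chga was not followed through the alternatives. Scaling to the 75th percentile would move its change toward 0 as far as that of other bright probe sets, such as Egr1, which went from -0.52 to -0.28.

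Of 17 genes for the sorting and the inner environment of the granule, 15 were measured. Past the thresholds 1 was lower and 0 were higher (8.43% and 2.37% over all probe sets), with a median of -0.23. The lower one was Hid1, a trans-Golgi protein that is known from mouse and worm to be needed for the maturation of dense-core granules. It read 212, 156 and 226 in fasted rats, against 571, 408 and 521 in fed rats, with no overlap. Hid1 had a log2 change of -1.34 (SE 0.19, adjusted p = 0.155 in limma), and a second probe set of Hid1 gave -0.85 (adjusted p = 0.195 in limma).

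Cyb561, also outside the rule and chosen after its values were seen, is the granule cytochrome that passes electrons inward to regenerate ascorbate, a cofactor of PAM. It read 231, 245 and 250 in fasted rats, against 343, 312 and 373 in fed rats. The groups did not overlap and the log2 change was -0.50 (adjusted p = 0.176 in limma), under 1.5-fold. Scaled to the 75th percentile it was -0.25 (unadjusted p = 0.0690 in limma).

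Among 6 other proprotein convertases 5 were measured, 1 was lower and 0 were higher past the thresholds (8.43% and 2.37% over all probe sets), with a median of -0.32. Pcsk5, which cuts growth factor precursors, read 6.18, 13.2 and 15 in fasted rats, against 24.6, 38.5 and 32.1 in fed rats (log2 change -1.55, SE 0.44, adjusted p = 0.258 in limma). The fasted values all lay below the median probe set of their arrays. Without fed replicate 2 the change was -1.39 and the call was lost (unadjusted p = 0.0501 in limma), and a further probe set of Pcsk5 gave -0.17 (adjusted p = 0.927 in limma).

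Of 9 other metallocarboxypeptidases 1 was lower and 0 were higher past the thresholds (8.43% and 2.37% over all probe sets), with a median of -0.08. Cpn1, the catalytic subunit of the plasma carboxypeptidase N, read 101, 133 and 146 in fasted rats, against 168, 207 and 195 in fed rats (log2 change -0.60, adjusted p = 0.260 in limma). That is close to the threshold of 1.5-fold, and the call was lost without fasted replicate 1 (-0.44), fed replicate 2 (-0.53) or fed replicate 3 (-0.57). It was also lost with arrays scaled to their 75th percentile (-0.35) or quantile normalized (-0.41), with array weights (-0.50), with a pseudocount and in the comparison of linear means (-0.58 each).

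Of 17 other enzymes that act on peptides 16 were measured, 4 were lower and 0 were higher past the thresholds (8.43% and 2.37% over all probe sets), with a median of -0.32. Qpctl, a Golgi enzyme that forms pyroglutamate at the start of peptides, read 38.4, 46.2 and 53.2 in fasted rats, against 80.8, 69.5 and 86.8 in fed rats (log2 change -0.79, adjusted p = 0.212 in limma). Scaled to the 75th percentile Qpctl was at -0.55 and no longer 1.5-fold lower, and likewise after quantile normalization (-0.55). The other 3, Prep, Nrdc and Thop1, are endopeptidases.

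Prep, prolyl endopeptidase, had a log2 change of -1.12 (adjusted p = 0.270 in limma), and its call was lost without fasted replicate 2 (-0.94), fed replicate 1 (-0.997) or fed replicate 3 (-1.09). Nrdc, which cuts before the arginine of dibasic sites, had -1.07 (adjusted p = 0.329 in limma). Its call was lost without any 1 of fasted replicate 1 (-0.56), fasted replicate 2 (-1.24), fed replicate 1 (-1.12), fed replicate 2 (-1.06) and fed replicate 3 (-1.02), and under 5 of the other alternatives, with unadjusted p between 0.0546 and 0.0860. Thop1, thimet oligopeptidase, was dim, at 8.52, 5.65 and 11.2 in fasted rats, against 17.2, 12.6 and 17.1 in fed rats. All these values lay below the median probe set of their arrays. Thop1 had a log2 change of -0.93 (adjusted p = 0.335 in limma). Its call was lost without any isolate except fasted replicate 3, at values between -1.08 and -0.67. The Thop1 call was also lost under 5 of the other alternatives, with unadjusted p between 0.0558 and 0.110.

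Of 10 transcription factors known to act on the convertase genes 9 were measured and 0 were past the thresholds, with a median of -0.10. At an unadjusted p under 0.05 alone, 3 were lower and 1 was higher, where 11.6% of all probe sets were lower and 3.25% higher. The brightest was Egr1, an immediate early factor known to act on the PCSK2 promoter in human. It read 1714, 1858 and 1787 in fasted rats, against 2729, 2530 and 2441 in fed rats, with no overlap. Egr1 had a log2 change of -0.52 (SE 0.07, adjusted p = 0.155 in limma), under 1.5-fold. Scaled to the 75th percentile it was -0.28 (unadjusted p = 0.0600 in limma).

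**Figure D4:**
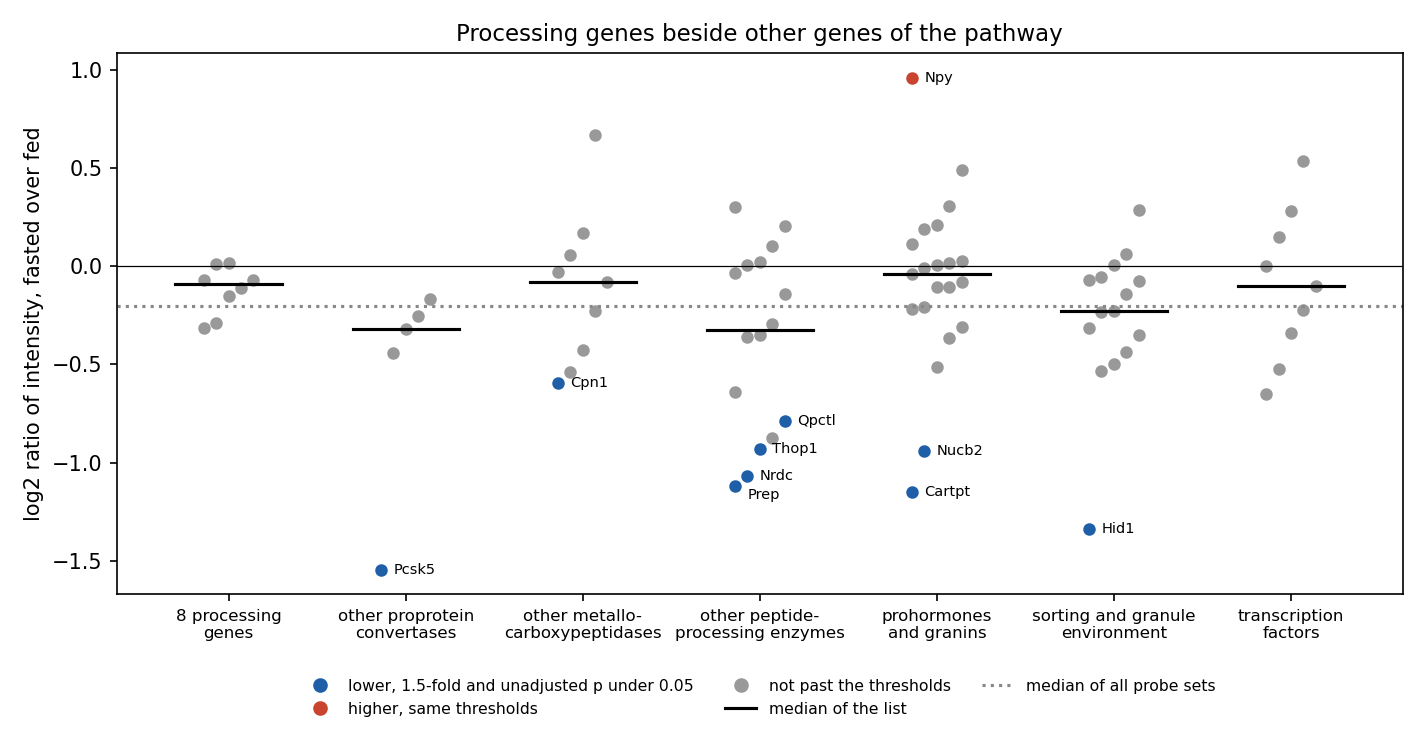
Log2 ratio of intensity, fasted over fed (vertical axis), of the brightest probe set of each gene in the 8 processing genes and 6 other lists of the pathway, with the median of each list as a bar and that of all probe sets as a dotted line. No processing gene is past the thresholds, 9 other genes are lower (blue) and 1, Npy, is higher (red). Over all probe sets 8.43% were lower and 2.37% higher.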

How the data were processed

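Affymetrix arrays were hybridized with RNA of FACS-purified rat beta cells, extracted in 1 batch, from 3 fasted and 3 fed isolates. The authors deposited linear intensities per probe set. Per the study's methods, dChip fitted its expression model once arrays had been normalized to the one of median intensity, with mismatch probes as background. Its version is not given in the sources used here, nor are detection calls. The 57 control probe sets were left out. Intensities under 3.27 (the 10th percentile) were set to that value, and the log2 values of the other 31042 probe sets went into limma 3.58.1 (R 4.3.3) as 2 groups without a block, with eBayes using the intensity trend. Tests were two-sided and p-values were adjusted by Benjamini and Hochberg's method over all these probe sets. The floor understates changes of dim probe sets.

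A single symbol named 20826 probe sets, several 436 and none 9780. Where a gene had several probe sets the brightest stood for it. The members and lists were chosen with earlier results of these data known. Named were all probe sets of the 8 genes, the genes of each other list past the thresholds (or its brightest gene where none was), Ins1, Ins2 and Iapp, and the 3 genes most like Pcsk1 and Pcsk2 by r over 6 arrays. Exceptions are said where they occur.

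As alternatives, linear means were compared with unequal variances, dim probe sets were omitted, the floor was moved to the 25th percentile (7.53) or replaced by a pseudocount of the same size, and arrays were quantile normalized, scaled to their 75th percentile or weighted (gene by gene). The trend was dropped, the variance made robust, a replicate block added, each isolate omitted in turn and each gene's probe sets averaged. Simulated data with known changes served to test the fit. Deviations of isolates with the same number correlated at -0.02, 0.10 and -0.08, so the numbers were not taken as pairs. Scan dates were not used here. Plots were made in matplotlib 3.10.9 (Python 3.11.15).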

Additional observations from a re-analysis of the deposited data

How the results depend on the processing

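Under all 16 alternatives run for the count, 0 probe sets of the 8 processing genes were past the thresholds or had an adjusted p under 0.05 in limma or the comparison with unequal variances. The median log2 change over the 8 genes was -0.09 as described, 0.011 with quantile normalization and 0.15 with arrays scaled to their 75th percentile, and between -0.18 (without fasted replicate 1) and -0.050 (without fed replicate 2) with 1 isolate left out. The changes that turned sign all had 95% intervals including 0 on the deposited scale. After quantile normalization Pcsk1 was at 0.0078, Cpd at 0.046 and Pcsk1n at 0.014. After scaling Pcsk1 was at 0.17, Cpd at 0.17, Pam at 0.091, Pcsk1n at 0.13 and Iapp at 0.16. With array weights Cpe was at -0.0025, and with the mean of all probe sets Pam was at 0.11. With 1 isolate left out, Cpe lay between -0.022 and 0.041, Cpd between -0.18 and 0.045, Scg5 between -0.032 and 0.071, Pcsk1n between -0.31 and 0.048 and Ins1 between -0.015 and 0.047. Pcsk2 had an unadjusted p of 0.0810 in the comparison with unequal variances and 0.117 without the intensity trend in limma. In limma it was 0.0071 with robust variance, 0.0099 with a pseudocount, 0.0106 with dim probe sets left out and 0.0187 with array weights. The cause of these differences was not tested. At an unadjusted p under 0.05 in limma, 2 of 10 probe sets were lower with dim ones left out. With a pseudocount there were 2 of 12, with robust variance or array weights 3, and with scaling or no trend 0. Hid1, Nucb2 and Egr1 had an adjusted p of 0.0239 to 0.0353 in limma with dim probe sets left out, a pseudocount or robust variance.

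With the replicate block the median over the 8 genes was -0.09, Pcsk2 was at -0.29 (unadjusted p = 0.0260 in limma), and over all probe sets 2046 were lower and 644 higher, against 2616 and 737 without it. The block changed no call of the 8 genes and ended that of Thop1 (unadjusted p = 0.0686 in limma). Counts over all probe sets lay more than 1.5-fold from these with unequal variances (1625 lower, 269 higher), a floor at the 25th percentile (419 higher), dim probe sets left out (379 higher, of 15520 probe sets), array weights (4209, 1302), and without fasted replicate 1 (1690 lower), fasted replicate 2 (1706 lower), fasted replicate 3 (5562, 1536), fed replicate 1 (1448, 475) or fed replicate 3 (472 higher).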
